A study of Rattus norvegicus with 10 samples.

Results

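Norrin signalling through Frizzled-4 was followed in the retina of newborn rats through 8 genes, namely Ndp, Fzd4, Lrp5, Lrp6, Tspan12, Ctnnb1, Lef1 and Axin2, out of 14324 genes that had a probe set with a single gene symbol. Each of the 8 had 1 such probe set, so no choice between probe sets was needed and every member was measured. None of the 8 genes was called higher or lower in cyclic hyperoxia in either strain, and none was called different between the strains. Lrp6 and Ctnnb1 were called lower in the pools numbered 3 than in the other pools of their groups, a comparison in which 14.8% of all probe sets were called. The Lrp6 call was lost when either pool numbered 3 was left out, and the Ctnnb1 call when any 1 pool was.

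The study examined early oxygen-induced retinopathy, in which high oxygen given to newborn animals disturbs the growing retinal vessels, in a resistant rat strain, F344 (Fischer 344), and a susceptible one, SD (Sprague Dawley). RNA of whole retina was taken at postnatal day 3 and measured on 10 whole-transcript gene arrays, each of which received RNA combined from 3 pups born in 2 litters. Cyclic hyperoxia was represented by 3 pools of F344 and 2 of SD, and room air by 2 pools of F344 and 3 of SD, which makes 4 groups. In the hyperoxia groups, mothers and litters entered an oxygen chamber no later than 12 hours after birth and alternated between 24 hours at 80% oxygen and 24 hours at 21% oxygen until day 3. Room air controls were of the same age, and the labels name no transgene or drug in any group. A pool averages its rats, so the spread between pools understates the spread between animals, and the pools are the replicates in every test.

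Norrin, the product of Ndp, is a secreted protein that in the retina is made mainly by Müller glia, and it is no Wnt but binds a Wnt receptor. It binds Frizzled-4 on endothelial cells together with the co-receptors Lrp5 or Lrp6, and the tetraspanin Tspan12 strengthens this signal. Beta-catenin, encoded by Ctnnb1, then accumulates and acts in the nucleus with TCF/LEF factors such as Lef1, and Axin2 is a widely used target that also feeds back on the pathway. Human mutations in NDP, FZD4, LRP5 and TSPAN12 leave the retinal periphery short of vessels, as in familial exudative vitreoretinopathy and Norrie disease.

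The bases just before the start of 3 members are shown because they hold, or lack, the short motif that TCF/LEF factors bind: Axin2 and Lef1 as readouts of the pathway and Ndp as its ligand. The sequences are those of RefSeq on the GRCr8 build, 5′ to 3′ on the strand of the gene, which is the plus strand for each, and capitals mark CTTTGA or CTTTGT on either strand. Axin2 lies at chr10:94398535-94398784, Lef1 at chr2:222340463-222340712 and Ndp at chrX:8379319-8379568, each window ending at the base before the start.

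Axin2: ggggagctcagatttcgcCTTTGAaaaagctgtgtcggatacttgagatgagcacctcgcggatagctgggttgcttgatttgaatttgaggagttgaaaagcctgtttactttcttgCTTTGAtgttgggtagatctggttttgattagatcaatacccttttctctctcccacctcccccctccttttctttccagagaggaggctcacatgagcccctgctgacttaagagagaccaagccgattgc

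Lef1: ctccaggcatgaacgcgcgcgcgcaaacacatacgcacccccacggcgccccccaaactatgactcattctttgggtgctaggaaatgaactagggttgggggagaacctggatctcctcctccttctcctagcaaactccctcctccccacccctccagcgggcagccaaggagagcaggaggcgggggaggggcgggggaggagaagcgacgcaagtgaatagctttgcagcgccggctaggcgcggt

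Ndp: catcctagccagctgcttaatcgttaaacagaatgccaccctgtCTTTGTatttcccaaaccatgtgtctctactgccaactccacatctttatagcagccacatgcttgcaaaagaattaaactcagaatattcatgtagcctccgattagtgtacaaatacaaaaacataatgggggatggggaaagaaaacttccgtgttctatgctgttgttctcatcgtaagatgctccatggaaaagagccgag

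The Axin2 window held CTTTGA 2 times, beginning 232 and 132 bases before the start. The Ndp window held CTTTGT once, beginning 206 bases before the start, and the Lef1 window held neither spelling. The table used held 6 of the 8 members, and the windows of Fzd4, Tspan12 and Ctnnb1 held neither spelling. Either spelling occurred in 27.5% of 33469 windows of 250 bases before RefSeq starts, CTTTGA in 13.9% and CTTTGT in 16.3%, so the motif is common and its presence here is a description only. The core of the hypoxia response element, ACGTG on either strand, was in none of the 6 members' windows and in 16.6% of all windows.

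Values are the deposited log2 expression values, given to 1 decimal, so a step of 0.1 is the smallest difference that a pair of arrays can show. On this scale a difference of 1 is a doubling. The median of an array lay between 5.9 and 6.0. The 2 pools numbered 3, in F344 hyperoxia and SD room air, stood apart from the others: 14.8% of 27342 probe sets were called different between them and the other pools of their groups by limma at an adjusted p under 0.05. The submitters' design text says that a further pool was added to these same 2 groups after a principal components analysis of the first 8, and the numbering makes those the likely added ones. Markers of Müller glia and progenitors, with list means of 9.16 to 9.55 over the 10 arrays, photoreceptors, with 9.30 to 10.2, and ganglion cells, with 7.97 to 8.56, were above the array medians. For most members the values without both of these pools are given too.

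Ndp, the ligand, had log2 values of 7.2 and 6.9 in F344 room air, 7.1, 7.3 and 7.5 in F344 hyperoxia, 7.4, 7.4 and 7.6 in SD room air and 7.4 and 7.3 in SD hyperoxia. Both F344 room air pools were below every SD pool, while the F344 hyperoxia pools spread from near the F344 controls to among the SD pools. The group means ran in the order SD room air at 7.47 ± 0.12 (SD, n = 3), SD hyperoxia at 7.35 ± 0.07 (n = 2), F344 hyperoxia at 7.30 ± 0.20 (n = 3) and F344 room air at 7.05 ± 0.21 (n = 2), and neighbours in that order shared at least part of their range. Hyperoxia minus room air was 0.25 in F344 (SE 0.14, 95% confidence interval -0.05 to 0.55, adjusted p = 0.921) and -0.12 in SD (SE 0.14, interval -0.42 to 0.18, adjusted p = 0.872). The difference between these responses, SD minus F344, was -0.37 (SE 0.20, interval -0.79 to 0.06, adjusted p = 0.662), so opposite signs in the 2 strains were not shown to be different responses. Without both pools numbered 3 the responses were 0.15 in F344 and -0.05 in SD.

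Fzd4, the receptor, spanned only 5.8 to 6.1 over the 10 arrays. It was at 6.0 and 6.0 in F344 room air, 5.9, 6.1 and 5.9 in F344 hyperoxia, 5.8 in each of the 3 SD room air pools and 5.9 in both SD hyperoxia pools. The SD groups did not overlap, but they lay 1 rounding step apart. The difference in SD was 0.10 (SE 0.10, interval -0.12 to 0.32, adjusted p = 0.851) and in F344 -0.03 (adjusted p = 0.974). In order, the group means were F344 room air, F344 hyperoxia, SD hyperoxia and SD room air, and neighbours lay at most 1 rounding step apart.

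The co-receptor Lrp5 had log2 values of 8.4 and 8.4 in F344 room air, 8.4, 8.5 and 8.0 in F344 hyperoxia, 8.4, 8.5 and 8.3 in SD room air and 8.5 and 8.4 in SD hyperoxia. Apart from the pools numbered 3, at 8.0 and 8.3, every pool was at 8.4 or 8.5. The hyperoxia difference was 0.05 in SD (SE 0.14, adjusted p = 0.951) and -0.10 in F344 (SE 0.14, adjusted p = 0.943). Without the F344 hyperoxia pool numbered 3 the F344 difference became 0.05.

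Lrp6, which can serve in the place of Lrp5 and in Wnt signalling at large, had the largest standard errors of the 8 genes in the hyperoxia and strain comparisons. Its log2 values were 10 and 10 in F344 room air, 9.9, 10 and 9.4 in F344 hyperoxia, 9.9, 9.8 and 9.5 in SD room air and 10 and 9.9 in SD hyperoxia. The exposure groups overlapped in F344, and in SD the higher room air pool equalled the lower hyperoxia pool at 9.9. The fitted difference was 0.22 in SD (SE 0.17, interval -0.15 to 0.59, adjusted p = 0.829) and -0.23 in F344 (SE 0.17, interval -0.60 to 0.14, adjusted p = 0.921), with SD minus F344 at 0.45 (SE 0.24, interval -0.07 to 0.97, adjusted p = 0.662). Without both pools numbered 3 these were 0.10, -0.05 and 0.15.

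Tspan12, the tetraspanin partner of Frizzled-4, was at 8.0 and 7.9 in F344 room air, 7.7, 7.9 and 8.1 in F344 hyperoxia, 7.7, 7.8 and 7.9 in SD room air and 7.8 in both SD hyperoxia pools. The F344 hyperoxia pools spanned the values of all other groups, and the exposure groups overlapped in both strains. The difference was 0.00 in SD (SE 0.13, interval -0.27 to 0.27) and -0.05 in F344 (SE 0.13, interval -0.32 to 0.22). With both pools numbered 3 left out these were 0.05 and -0.15.

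Ctnnb1, the signal carrier inside the cell and also a part of cell junctions, was at 10.8 and 10.8 in F344 room air, 10.9, 10.9 and 10.7 in F344 hyperoxia, 10.9, 11 and 10.6 in SD room air and 10.9 and 10.9 in SD hyperoxia. The difference was 0.07 in SD (SE 0.13, interval -0.21 to 0.34) and 0.03 in F344 (SE 0.13, interval -0.24 to 0.31). Leaving out both pools numbered 3 gave -0.05 and 0.10. These arrays measure its messenger RNA, whereas the pathway acts on the stability of its protein.

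Lef1, a nuclear partner of beta-catenin and itself a target of the pathway, gave log2 values below the median of every array, at 5.1 and 5.3 in F344 room air, 5.1 in each of the 3 F344 hyperoxia pools, 5.0, 5.1 and 5.4 in SD room air and 4.9 and 5.0 in SD hyperoxia. The SD hyperoxia pools were the lowest of the 10 together with an SD room air pool at 5.0. The difference was -0.22 in SD (SE 0.13, interval -0.49 to 0.06, adjusted p = 0.815) and -0.10 in F344 (SE 0.13, interval -0.38 to 0.18, adjusted p = 0.940). Without the SD room air pool numbered 3 the SD difference was -0.10.

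Axin2, the target most often used to read the pathway, varied least, between 6.6 and 6.8. It was at 6.6 and 6.7 in F344 room air, 6.7, 6.8 and 6.7 in F344 hyperoxia, 6.7, 6.7 and 6.6 in SD room air and 6.7 and 6.6 in SD hyperoxia, so that all 4 groups shared the value 6.7. The difference was -0.02 in SD (SE 0.10, interval -0.24 to 0.20) and 0.08 in F344 (SE 0.10, interval -0.14 to 0.30), and without both pools numbered 3 it was -0.05 and 0.10.

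Across the members, 0 of 8 passed an adjusted p of 0.05 in limma in SD, where 0.0439% of all probe sets did, and 0 of 8 in F344, where 0.00366% did. At an unadjusted p under 0.05 the count was also 0 in each strain, against 5.95% and 4.83% of all probe sets, and with empirical Bayes moderation by trend and robust fitting no member was called either. The median difference of the 8 was 0.03 in SD and -0.04 in F344, beside 0.00 over all genes in each. Without both pools numbered 3 the signs of these medians were reversed, at -0.025 in SD and 0.025 in F344. None of the 95% intervals, which are not adjusted for the number of genes, reached beyond a 1.52-fold change in either strain, and Lrp6 came closest to that limit in both. For the difference between the responses 0 of 8 members were called, as for all probe sets (0.0%), and 0 of 8 had an unadjusted p under 0.05, beside 7.51%. The average over both strains called 0 of 8, where 0.0402% of all probe sets were called, and 0 of 8 at an unadjusted p under 0.05, beside 4.08%. In the average the intervals lay within a 1.28-fold change. With so few calls over the whole table, a count of 0 among 8 genes is what the background gives. Groups that did not overlap were seen for 1 of 8 members in SD (Fzd4) and 0 of 8 in F344, beside 15.3% and 12.3% of all probe sets.

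**Figure D1:**
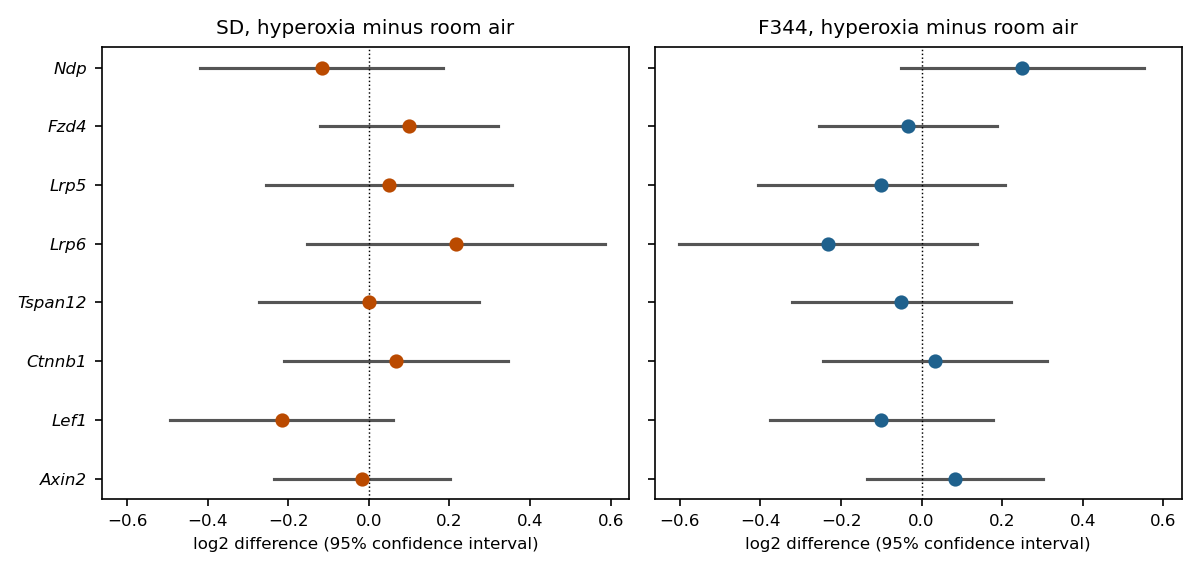
Hyperoxia minus room air for each member in SD (left) and F344 (right), as the log2 difference (x axis) with its 95% confidence interval from limma. Every interval includes 0, and the widest reach 0.59 for Lrp6 in SD and -0.60 for Lrp6 in F344.

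Between the strains in room air, Ndp had the largest difference among the members. The fitted Ndp ratio of SD to F344 was 1.33 (log2 difference 0.42, SE 0.14, 95% interval 0.12 to 0.72), with an adjusted p of 0.279 that does not pass the threshold, and all 3 SD pools were above both F344 pools. Without either F344 pool in turn the Ndp difference was 0.57 (without pool 1) or 0.27 (without pool 2), and without both pools numbered 3 it was 0.35. In hyperoxia the Ndp difference was 0.05 (SE 0.14, interval -0.25 to 0.35, adjusted p = 0.964). In room air Fzd4 had a log2 difference of -0.20 (SE 0.10, adjusted p = 0.483) and Lrp6 had -0.27 (SE 0.17, adjusted p = 0.583), both without overlap between the strains. The Lrp6 difference was -0.15 without both pools numbered 3. In all, limma called 0 of 8 members in room air, where it called 0.556% of probe sets, and 0 of 8 in hyperoxia, where it called 0.457%. At an unadjusted p under 0.05 these counts were 1 of 8 (Ndp), beside 11.4%, and 0 of 8, beside 6.64%. The strains did not overlap for 3 of 8 members in room air (Ndp higher in SD, Fzd4 and Lrp6 lower) and for 1 of 8 in hyperoxia (Lef1, lower in SD at 4.9 and 5.0 against 5.1), beside 19.7% and 14.7% of all probe sets. Averaged over both exposures, a comparison added after the values had been seen, Ndp was at 0.23 (SE 0.10, adjusted p = 0.478) and 0 of 8 members were called, beside 1.35% of all probe sets, with 1 of 8 (Ndp) at an unadjusted p under 0.05, beside 9.13%.

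In room air the list means of photoreceptors and of Müller glia and progenitors were on average higher in SD than in F344. By limma 0 of 6 and 0 of 12 of their genes were called, beside 0.556% of all probe sets. At an unadjusted p under 0.05 there were 1 and 2, beside 11.4%. The photoreceptor list, of which 6 of 10 genes were measured, had list means of 9.30 to 9.43 in the F344 pools and 9.58 to 10.2 in the SD pools. The list for Müller glia and progenitors, with 12 of 15 genes measured, had 9.19 to 9.30 in F344 and 9.28 to 9.55 in SD, which overlap. Without the SD pool numbered 3, the SD list means were 9.58 to 9.83 for photoreceptors and 9.40 to 9.55 for Müller glia and progenitors. In hyperoxia the median differences, SD minus F344, were -0.075 for photoreceptors and 0.158 for Müller glia and progenitors. The part of these lists in the Ndp difference was not tested. In whole retina, fewer cells of a type and less RNA per cell cannot be told apart.

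The pools numbered 3 gave the only called differences among the members. Against the other pools of their groups, in a model with the 4 groups and a term for these pools that was added after the values had been seen, Lrp6 was lower by limma (log2 difference -0.45, SE 0.09, adjusted p = 0.00629), as was Ctnnb1 (-0.28, SE 0.09, adjusted p = 0.0495). Lrp5 was at -0.30 (SE 0.10, adjusted p = 0.0544), Ndp at 0.25 (SE 0.10, adjusted p = 0.138) and Tspan12 at 0.23 (SE 0.09, adjusted p = 0.138). That is 2 of 8 members called, both lower, beside 14.8% of all probe sets called and 7.62% called lower, and 5 of 8 had an unadjusted p under 0.05, beside 27.5%. The 2 pools did not overlap the other 8 for Ndp (7.5 and 7.6 against 6.9 to 7.4), Lrp5 (8.0 and 8.3 against 8.4 to 8.5), Lrp6 (9.4 and 9.5 against 9.8 to 10) and Ctnnb1 (10.7 and 10.6 against 10.8 to 11), which is 4 of 8 beside 17.9% of all probe sets.

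The Lrp6 call did not hold with 1 of the pools numbered 3 left out. Without the F344 hyperoxia pool it was -0.35 (adjusted p = 0.131) and without the SD room air pool -0.55 (adjusted p = 0.0541). The Ctnnb1 call was lost when any 1 of the 10 pools was left out, with adjusted p between 0.0587 and 0.346. Marker genes were called in these pools too. Of 11 measured cell cycle genes 8 were lower (median -0.45), and of 12 genes of Müller glia and progenitors 5 were lower and 1 higher (median -0.25). Called higher were 3 of 6 photoreceptor genes (median 0.45), 3 of 7 ganglion cell genes (median 0.35) and 3 of 13 endothelial genes, all 13 of which were above 0. Their part in the member values was not tested.

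**Figure D2:**
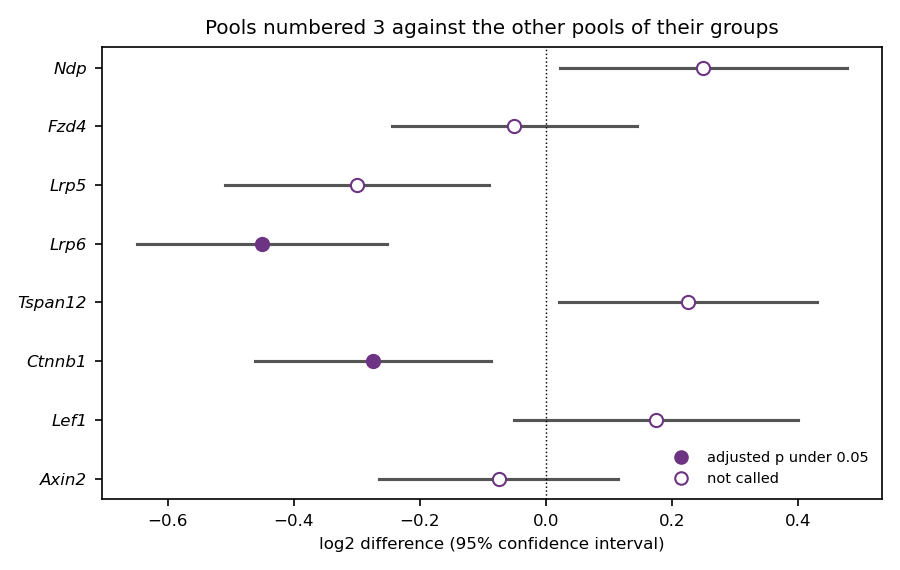
Log2 difference (x axis) between the pools numbered 3 and the other pools of their groups for each member, with 95% confidence intervals; filled points passed an adjusted p of 0.05. Lrp6 at -0.45 and Ctnnb1 at -0.28 are filled, and Ndp at 0.25 and Tspan12 at 0.23 lie on the other side of 0.

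The wider pathway was described through 107 further genes listed by role, of which 90 were measured. In hyperoxia 0 of the 90 were called in SD and 0 in F344 by limma, with 7 and 4 at an unadjusted p under 0.05 beside 5.95% and 4.83% of all probe sets, and their median difference was -0.01 in SD and -0.10 in F344, beside 0.00 over all genes in each. Of the 90, 62 were below 0 in F344 and 45 in SD, beside 6905 and 6594 of all 14324 genes. Without both pools numbered 3 these counts were 58 and 41. These counts describe the lists, and no gene in them rose or fell by the test.

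Among the 19 measured ligands and enhancers other than norrin, the median difference was -0.07 in SD and -0.10 in F344. Wnt2 in SD was at -0.27 (SE 0.11, adjusted p = 0.815) and Wnt5b in F344 at -0.30 (SE 0.10, adjusted p = 0.921). Among 13 receptors and co-receptors the medians were 0.10 in SD and -0.18 in F344, or 0.05 and -0.10 without both pools numbered 3. Fzd6, a Frizzled known for planar cell polarity, was at 0.33 in SD and -0.32 in F344, and the test of that difference gave 0.65 (SE 0.22, adjusted p = 0.651). Among 17 secreted and membrane inhibitors the medians were 0.00 and -0.08, with Sostdc1, a secreted antagonist, at -0.40 in SD (SE 0.18, adjusted p = 0.815) and at -0.25 there without both pools numbered 3. The 14 cytoplasmic transducers had medians of 0.07 in SD and -0.08 in F344, or 0.025 and 0.00 without those pools. The 10 nuclear partners had -0.03 and -0.04, with Tcf7l1, a TCF factor that mostly represses, at -0.25 in SD (SE 0.15, adjusted p = 0.815), or -0.10 without those pools.

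Endothelial genes regulated by norrin and Frizzled-4 in other studies, in either direction, had the lowest median of the role lists in SD. That median was -0.25 with 9 of 11 measured genes below 0, and in F344 it was -0.13 with 8 of 11 below 0. Without both pools numbered 3 the medians were -0.15 with 8 of 11 below 0 in SD and -0.10 with 10 of 11 in F344. None of the 11 passed the test in either strain. At an unadjusted p under 0.05 by limma there were 4 in SD and 1 in F344, beside 5.95% and 4.83% of all probe sets. Cldn5, which encodes the tight junction protein claudin-5, was at 5.8, 5.9 and 6.1 in SD room air and 5.5 and 5.2 in SD hyperoxia (difference -0.58, SE 0.13, adjusted p = 0.441). In F344 it was at 5.8 and 6.0 in room air and 5.6, 5.6 and 5.4 in hyperoxia (-0.37, SE 0.13, adjusted p = 0.921). The hyperoxia pools were below the room air pools in both strains. The groups did not overlap, in either direction, for 15.3% of all probe sets in SD and 12.3% in F344. Slc2a1, the glucose transporter of the blood-retina barrier that other retinal cells also make, was at 10.9, 11 and 10.8 in SD room air and 10.4 and 10.4 in SD hyperoxia (-0.50, SE 0.13, adjusted p = 0.647), and was at -0.23 in F344 (adjusted p = 0.921), or -0.15 without both pools numbered 3. Slc38a5, an amino acid transporter whose retinal endothelial expression depends on norrin, was at 4.8, 5.0 and 5.1 against 4.7 and 4.5 in SD (-0.37, SE 0.11, adjusted p = 0.815). In F344 it was at 4.9 in both room air pools against 4.7 in the 3 hyperoxia pools (-0.20, SE 0.11, adjusted p = 0.921). These Slc38a5 values were below the median of every array. Plvap, a protein of leaky endothelium that is higher when the pathway is lost, was at -0.32 in SD (SE 0.13, adjusted p = 0.815). In F344 it was at -0.15 (SE 0.13, adjusted p = 0.921). Plvap counts among the genes below 0 in both strains, so the counts and medians of this list mix both directions of regulation.

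General endothelial markers also lay mostly below 0. Of 16 listed markers 13 were measured, among which Cldn5 also belongs to the list above. Of the 13, 12 were below 0 in SD (median -0.35) and 11 in F344 (median -0.27), with 0 called. By limma 8 of 13 in SD and 6 of 13 in F344 had an unadjusted p under 0.05, beside 5.95% and 4.83% of all probe sets. The list mean of these markers was 5.23 to 5.59 in SD room air and 4.98 to 5.08 in SD hyperoxia. In F344 it was 5.19 to 5.43 against 5.03 to 5.20. The highest of these, 5.59, was the SD room air pool numbered 3, as 5.20 was the F344 hyperoxia pool numbered 3. Without both, the list mean was 5.23 to 5.38 against 4.98 to 5.08 in SD and 5.19 to 5.43 against 5.03 to 5.05 in F344, and 12 of 13 markers were below 0 in each strain (median -0.25 in both). The part of these markers in the values of the norrin-regulated genes was not tested. Markers of pericytes and smooth muscle were below 0 for 9 of 9 in SD and 7 of 9 in F344 (median -0.25 in both). Without both pools numbered 3 these counts were 7 and 8. Astrocyte markers were below 0 for 6 of 7 in SD and 5 of 7 in F344 (medians -0.13 and -0.07). Ganglion cell markers were below 0 for 6 of 7 in SD and 3 of 7 in F344 (medians -0.35 and 0.10). Without both pools numbered 3 the ganglion cell medians were -0.20 and -0.05. Other lists lay differently. Photoreceptor markers were above 0 for 1 of 6 in SD and 6 of 6 in F344 (medians -0.05 and 0.32, or 0.125 and 0.25 without those pools). Cell cycle genes were above 0 for 10 of 11 and 4 of 11 (medians 0.18 and -0.03, or 0.05 in both without those pools). Genes of Müller glia and progenitors were above 0 for 7 of 12 and 8 of 12 (medians 0.02 and 0.10, or -0.125 and 0.125). In these lists 0 genes were called.

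The 7 measured general targets of beta-catenin, which include Myc and Ccnd1, had medians of -0.05 in SD and 0.03 in F344. Without both pools numbered 3 their medians were 0.00 and -0.05. The 4 other measured genes of familial exudative vitreoretinopathy had medians of 0.11 in SD and -0.17 in F344, with Kif11, a mitotic motor, at 0.18 and -0.13 and Jag1, a Notch ligand, at 0.12 and -0.22. For Jag1 the difference between the strains' responses was 0.33 (SE 0.18, adjusted p = 0.662) and for Kif11 0.32 (SE 0.31, adjusted p = 0.774). Without both pools numbered 3 the medians of these 4 genes were -0.05 in SD and -0.075 in F344, with 3 of 4 below 0 in each. Kif11 was then at -0.05 in SD and 0.05 in F344, and Jag1 at 0.15 and -0.20. Kif11 was also lower in the pools numbered 3 (log2 difference -0.62, adjusted p = 0.00111), as was Rcbtb1 at -0.42 (adjusted p = 0.0153).

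**Figure D3:**
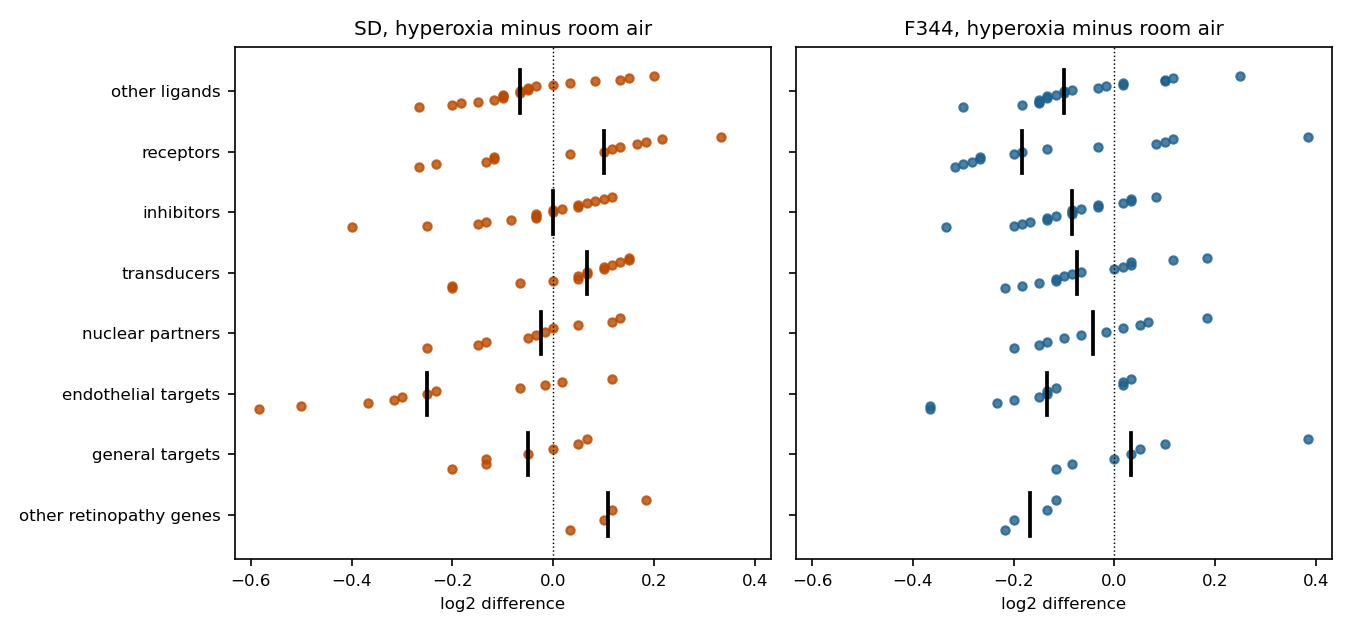
Hyperoxia minus room air as the log2 difference (x axis) for the other measured pathway genes by role, 1 point a gene, in SD (left) and F344 (right); black bars are medians, and a gene in several lists is drawn in each. The endothelial genes regulated by norrin have medians of -0.25 in SD and -0.13 in F344, and no point passed the test.

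Of the 90 further genes, 2 were called between the strains in the average over both exposures, a Wnt ligand and an enhancer, beside 1.35% of all probe sets. A count of 0 among the 8 members there is near that share too. Wnt7b, which acts on endothelial cells of the brain through Frizzled receptors, was at 6.6 and 6.6 in F344 room air and 6.7, 6.9 and 6.5 in F344 hyperoxia, against 7.4, 7.6 and 7.2 in SD room air and 7.6 and 7.6 in SD hyperoxia. Each of the 5 SD pools was above each of the 5 F344 pools, and 2.02% of all probe sets separated the strains in this way, in either direction. Wnt7b was higher in SD by limma in room air, 1.74-fold (log2 difference 0.80, SE 0.14, adjusted p = 0.0234), and in hyperoxia, 1.87-fold (0.90, SE 0.14, adjusted p = 0.0113), as 0.358% and 0.252% of all probe sets were. Averaged over both exposures it was at 0.85 (SE 0.10, adjusted p = 5.75e-04). The room air call was lost when pool 1 (adjusted p = 0.0792) or 2 (0.0995) of SD room air, pool 1 (0.227) or 2 (0.321) of F344 room air, either pool of SD hyperoxia (0.0656) or pool 1 of F344 hyperoxia (0.0532) was left out, and when only the groups compared were fitted (0.26). The hyperoxia call was lost without SD hyperoxia pool 1 (0.238) or 2 (0.195) or F344 hyperoxia pool 1 (0.0577), and with only the groups compared (0.265). The Wnt7b average kept its call under every alternative run.

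Rspo2, an R-spondin that enhances Wnt signalling, was at 7.2 and 7.1 in F344 room air and 7.2, 7.1 and 7.1 in F344 hyperoxia. In SD it was at 7.6, 7.7 and 7.8 in room air and 7.6 and 7.4 in hyperoxia, again without overlap between the strains. Its average difference was 0.46 (SE 0.08, adjusted p = 0.00942). That call was lost when pool 2 of F344 room air (adjusted p = 0.0834) or pool 1 of SD hyperoxia (0.094) was left out. In room air the Rspo2 difference was 0.55 (SE 0.11, adjusted p = 0.0506) and in hyperoxia 0.37 (SE 0.11, adjusted p = 0.355). These were the 2 of the 90 further genes that were called in the average, both higher in SD, as 0.808% of all probe sets were, and 0.541% were lower. Ctnnbip1, an inhibitor of beta-catenin binding to TCF factors, was at 0.25 (SE 0.07, adjusted p = 0.137), and Sfrp2, a secreted inhibitor, was at -0.21 (SE 0.08, adjusted p = 0.392).

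**Figure D4:**
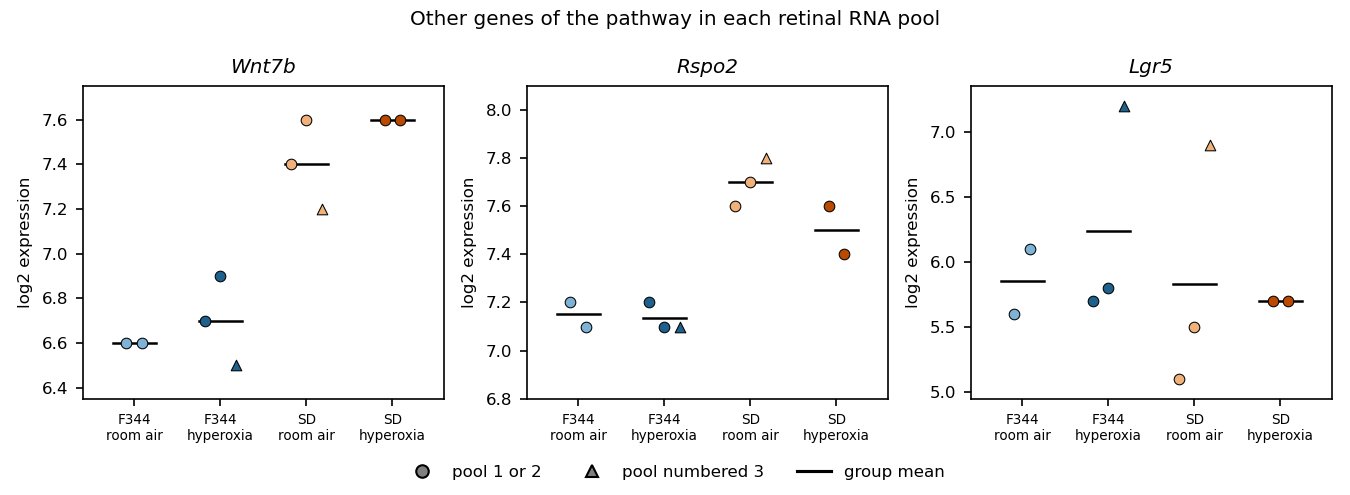
Deposited log2 expression (y axis) of Wnt7b, Rspo2 and Lgr5 in every pool, with circles for pools 1 and 2, triangles for pools numbered 3 and bars for group means. Wnt7b and Rspo2 separate the strains, at 6.5 to 6.9 against 7.2 to 7.6 for Wnt7b, and Lgr5 is at 7.2 and 6.9 in the pools numbered 3 and at 5.1 to 6.1 in the others.

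Lgr5, a receptor for R-spondins and a target of beta-catenin, gave the largest difference of the wider pathway in the pools numbered 3. It was at 7.2 in F344 hyperoxia pool 3 and 6.9 in SD room air pool 3, and between 5.1 and 6.1 in the other 8, a difference of 1.52 (SE 0.14, adjusted p = 4.78e-05). Of the 90 further genes, 6 were called higher and 7 lower in those pools, beside 7.22% and 7.62% of all probe sets, among them Fzd5 at -0.60 (SE 0.11, adjusted p = 0.00284), Lgr4 at -0.38, Tmem67 at -0.68 and Apc, a scaffold of the complex that degrades beta-catenin, at -0.47. Fzd8 was called higher at 0.47, and Sostdc1 and Dkk4, both secreted antagonists, at 0.47 and 0.45.

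The genes most like each member were sought over the 10 arrays by Pearson's r among 6492 genes with an SD of at least 0.15, as a description without a test. The closest were B3galnt1 for Ndp (r = 0.96), Cadps for Fzd4 (0.958), Clint1 for Lrp5 (0.964), Prpf8 and Htt for Lrp6 (0.985 for both), Syndig1l for Tspan12 (0.931), Gldc for Ctnnb1 (0.982), Adgrl4 for Lef1 (0.915) and Aadac and Amt for Axin2 (0.83 for both). The arrays share the pools numbered 3: for Lrp5, Lrp6 and Ctnnb1, each of the 3 most similar genes had a mean in those pools below the lowest of the other 8, as Prpf8 at 10.3 against 10.6 to 10.7. Adgrl4, the gene most like Lef1, is an adhesion receptor found on endothelial cells. The next for Lef1 were Ngp (r = 0.895) and Ddi1 (r = 0.889), so the endothelial role describes 1 gene of the 3. For Axin2 the 10 values take only 3 levels, so its r rests on rounding.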

How the data were processed

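The 10 arrays were normalized by the authors with RMA, and Partek 6.4 is also named, per the submitters' processing notes; the deposited values are log2 expression, given to 1 decimal, and its background correction and settings were not given in the sources used here. Of 27342 probe sets, 15097 had 1 gene symbol, 323 several and 11922 none in the platform annotation, and 15067 matched the RefSeq gene table of GRCr8 by gene identifier. Each gene was read from the probe set with the highest mean over the 10 arrays.

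A group-means model of the 4 strain by exposure groups was fitted to all 10 arrays and all probe sets with limma 3.58.1 in R 4.3.3 (lmFit and eBayes, two-sided, 6 residual degrees of freedom), and p-values were adjusted by Benjamini-Hochberg over the 27342 probe sets, with 0.05 as the threshold. The 6 comparisons were hyperoxia in SD, in F344, their difference and their average, and the strains in room air and in hyperoxia. The comparisons that share a group share its pools. A comparison of the strains averaged over exposures and a term for the pools numbered 3 (5 residual degrees of freedom) were added after the values had been seen. The small number of arrays limits the precision.

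The members and the gene lists were chosen with earlier results of these data known. All members are named, and of the other pathway genes those called, or otherwise up to 2 of each role with the largest difference, are candidates for naming; Slc38a5, Plvap and Kif11 in F344 were named for their known role or after their values were seen. Genes most like a member were the 3 with the highest r. Alternatives were array centring, repeated quantile normalization, trend and robust moderation, array weights, brighter probe sets only, 1 or the mean probe set per gene, a fit of the compared groups alone, a block for the replicate number, the added-array term and leaving out pools. The fit was tested on simulated data for the SD comparison with 27342 probe sets, where it recovered 82% of changes of log2 size 1 and 98% of size 2, with 12 false calls. The simulated pools had independent noise and no shared shift of the pools numbered 3. Changes as small as the members' hyperoxia differences, at most 0.25 in size, were not simulated. The recovery therefore does not tell how often such changes would be called.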

Additional observations from a re-analysis of the deposited data

How the results depend on the processing

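No member was called in the 6 planned comparisons or the strain average under any of the alternatives run. Of 980 member values recomputed, 45 changed sign, 8 of them by over 1 standard error of the main value, all for Lrp5 or Ctnnb1. The Lrp5 response in F344 was 0.05 without both pools numbered 3, and -0.20 to 0.05 with 1 pool left out. The Lrp5 difference between the strains' responses was -0.05 and that of Ctnnb1 -0.15 with the added-array term, with the replicate block and without both pools numbered 3. Those settings remove or absorb the pools numbered 3. With 1 pool left out, members called for the pools numbered 3 ranged from 0 to 2. Lrp5 passed there under 1 probe set per gene (adjusted p = 0.0375), array weights (0.0467), centred arrays (0.03), the brighter probe sets (0.0267), trend and robust moderation (0.0341), the mean probe set (0.037) and without SD room air pool 1 (0.0481). Rspo2 passed in room air with the added-array term (0.0309), 1 probe set per gene (0.0381), array weights (0.0375), the mean probe set (0.0382) and without F344 hyperoxia pool 3 (0.0488).

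With the replicate number as a block, 0 members were called in each planned comparison, the Ndp strain difference in room air was 0.33, and Rspo2 passed there (0.0421). Pools with the same number correlated in their deviations from -0.07 to 0.64 over 13 pairs, 4 of them over 0.1, so the numbers were not taken as pairing. In the data 7 of 10 pools correlated best with their own number, and F344 hyperoxia and SD room air had 0.31, 0.40 and 0.64 for their 3 same-numbered pairs. Between pools 1 and 2 of these groups the different-numbered pairs were positive too, at 0.14 and 0.23. Deviations from a group mean sum to 0, so a shift shared by the pools numbered 3 also moves pools 1 and 2 together. These values therefore do not settle whether the pools were paired. Depth is not defined for arrays; signal limits Lef1 and Fzd4, which were left out with the dimmer probe sets, and the rounding to 0.1 limits Axin2 and Fzd4.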
